A study of Homo sapiens with 6 samples.

Results

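CCDC141, TTN and SESTD1 lie next to each other on the long arm of human chromosome 2, and this account follows their RNA in 2 prostate cancer cell lines under androgen and antiandrogen. The 3 genes are 3 of the 21512 rows of the deposited gene table. They were chosen by symbol, CCDC141 and TTN because both were higher after dihydrotestosterone (DHT) and SESTD1 as their neighbour, so the DHT values of the 3 genes describe that choice and carry no test. All 3 genes were in the table and all 3 passed the filter on low counts, a mean of at least 20 counts per library, CCDC141 and TTN through 1 library alone.

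Total RNA was extracted and sequenced from LNCaP, an androgen-sensitive prostate cancer line that is widely used as a model of the androgen response, and from BicR, a second prostate cancer line whose derivation the labels leave unstated. Before treatment, both lines spent 3 days in phenol red-free medium with 2.5% charcoal-stripped serum, which removes most steroid hormone. Each line then received ethanol vehicle, 10 nM DHT or 1 µM bicalutamide, an antiandrogen, for 24 h. Each of the 6 combinations is 1 library, so within a line there are no replicates and the intervals below cover counting error alone. The ethanol and bicalutamide libraries, 4 in all, are called androgen-free here.

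Titin, the product of TTN, is the giant filament protein of the striated muscle sarcomere: it spans from the Z-disc to the M-band, acts as a molecular spring and scaffold, and its gene carries many cardiomyopathy and myopathy mutations. CCDC141, also called CAMDI, is a coiled-coil protein with an immunoglobulin-like domain that binds DISC1 and myosin II and takes part in centrosome positioning during neuronal migration. SESTD1 (SEC14 and spectrin domains 1) binds phospholipids and TRPC4 and TRPC5 calcium channels, and works with Dapper1 in planar cell polarity. DHT is the potent androgen of the prostate. Androgen response elements, near or far from the genes they act on, are inverted repeats of a hexamer, AGAACA and its reverse complement TGTTCT.

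Along the chromosome the order in RefSeq was PLEKHA3, TTN, CCDC141, SESTD1 and ZNF385B, and TTN, CCDC141, SESTD1 and ZNF385B were all transcribed from the minus strand. TTN and CCDC141 therefore point the same way, and each has a start of its own. The 250 bases upstream of those starts are shown because both genes were chosen for higher levels with DHT. Both sequences are from RefSeq (GRCh38.p14), minus strand, read 5′ to 3′ and ending at the base before the start. Capitals mark a single match to the hexamer AGAACA in TTN, at positions -143 to -138 counted from the start. CCDC141 has no match and so no capitals. CCDC141 is at chr2:179050138-179050387 and TTN at chr2:178807424-178807673.
CCDC141: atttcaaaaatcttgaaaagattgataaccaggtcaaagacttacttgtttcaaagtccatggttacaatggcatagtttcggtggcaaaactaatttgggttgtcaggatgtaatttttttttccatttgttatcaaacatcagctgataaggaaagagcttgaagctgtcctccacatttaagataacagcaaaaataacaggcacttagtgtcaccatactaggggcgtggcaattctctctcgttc
TTN: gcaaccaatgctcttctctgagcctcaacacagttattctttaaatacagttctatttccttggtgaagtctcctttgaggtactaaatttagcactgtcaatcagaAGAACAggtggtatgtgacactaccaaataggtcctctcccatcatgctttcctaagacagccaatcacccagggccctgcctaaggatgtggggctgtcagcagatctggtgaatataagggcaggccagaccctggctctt
The search covered both strands of these windows for the hexamer AGAACA and for the full inverted repeat, which is AGAACA and TGTTCT with 3 free bases between them. It also covered the TATA box core, TATAAA. The CCAAT box, spelled as named, and the GC box, GGGCGG, completed the set. Among 35116 RefSeq promoter windows of the same length, 12.4% held AGAACA on either strand, so the match in TTN is a common one, and 0.00285% held the full repeat. The full repeat, of which AGAACA is one arm, was in neither window. TTN also held 2 copies of CCAAT, a motif present in 32.0% of windows. CCDC141 held none of the 5 motifs in this window.

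CCDC141 RNA was close to absent without androgen and was high in a single library, BicR with DHT. Its counts were 0 in LNCaP with ethanol, 0 in LNCaP with bicalutamide, 28 in LNCaP with DHT, 1 in BicR with ethanol, 2 in BicR with bicalutamide and 588 in BicR with DHT. In CPM (counts scaled to the library total, with TMM factors) the DHT levels were 0.516 in LNCaP and 14.0 in BicR. Both DHT libraries lay above all 4 androgen-free ones, which together held 3 CCDC141 counts against 616 in the 2 DHT libraries. The BicR DHT library alone held 95% of all 619 CCDC141 counts. In bulk libraries such as these, fewer expressing cells and less RNA per cell cannot be told apart. The limit that a count of 0 allows, 3 counts, corresponded to between 0.0552 and 0.0715 CPM across libraries, and all 4 androgen-free values of CCDC141 were under it.

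TTN was likewise high in BicR with DHT alone, with a few more counts than CCDC141 in the androgen-free libraries. Its counts were 1 in LNCaP with ethanol, 12 in LNCaP with bicalutamide, 26 in LNCaP with DHT, 8 in BicR with ethanol, 4 in BicR with bicalutamide and 828 in BicR with DHT. The DHT levels were 0.479 CPM in LNCaP and 19.7 CPM in BicR, and the androgen-free levels reached at most 0.230 CPM. The groups did not overlap, but the LNCaP DHT library stood only just above the LNCaP bicalutamide library. Of 879 TTN counts, 94.2% came from BicR with DHT.

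SESTD1, the next gene along, was expressed in every library, between 13.9 and 21.8 CPM. Its counts were 865, 1138 and 753 in LNCaP with ethanol, bicalutamide and DHT, and 1003, 987 and 748 in BicR in the same order. The corresponding levels were 17.3, 21.8 and 13.9 CPM in LNCaP and 19.3, 20.1 and 17.8 CPM in BicR. The lowest library was LNCaP with DHT, and the DHT and androgen-free groups overlapped because BicR with DHT lay above LNCaP with ethanol.

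**Figure D1:**
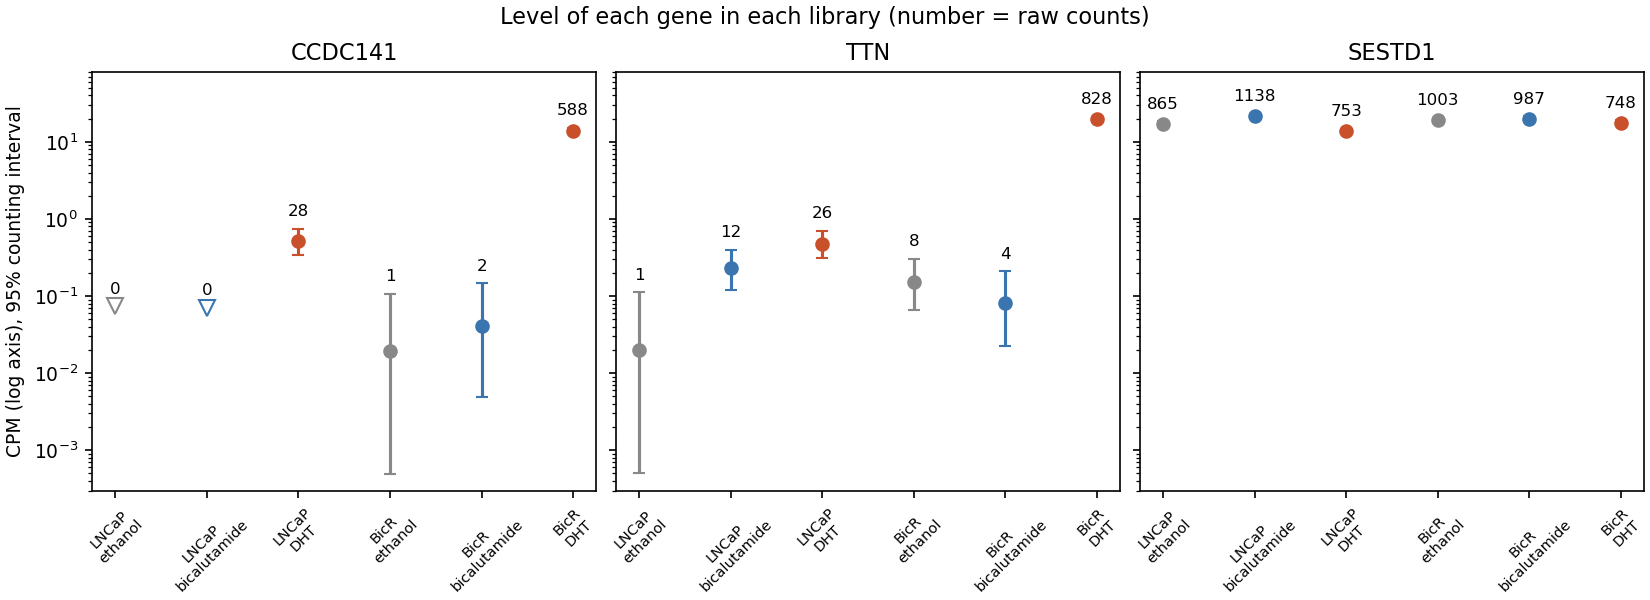
Level of CCDC141, TTN and SESTD1 in each library, in CPM on a log axis, with 95% counting intervals as bars and raw counts as numbers; grey is ethanol, blue bicalutamide and red DHT, and an open triangle marks the upper bound where the count was 0. CCDC141 and TTN reach 14.0 and 19.7 CPM in BicR with DHT and stay under 0.6 CPM elsewhere, while SESTD1 stays between 13.9 and 21.8 CPM.

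The share of genes with both DHT libraries above all 4 androgen-free libraries was 5.82% of the 13885 genes tested, and the share with both below was 6.03%. CCDC141 and TTN belonged to the first group, which their choice fixes, and SESTD1 belonged to neither.

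CCDC141 and TTN were higher with DHT in both lines, and reached a much higher level in BicR than in LNCaP. In LNCaP, CCDC141 was at least 8.59-fold higher with DHT than with ethanol, taking 3 counts in the ethanol library as the floor and the 28 DHT counts as exact. With counting error in both libraries, the lower 95% limit of the ratio was 6.54. In BicR the ratio was 730, with a 95% counting interval of 131 to 28889 that rests on 1 count in the ethanol library. TTN was 23.9 times as high with DHT as with ethanol in LNCaP (interval 3.93 to 982, from 1 ethanol count) and 129 times as high in BicR (64.9 to 299). The fold intervals of TTN overlap between the lines, and the denominators are 0, 1, 1 and 8 counts, so the lines and the genes cannot be ordered by fold over ethanol at this depth.

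The bicalutamide libraries, the other androgen-free comparator, gave the same direction. Against bicalutamide, CCDC141 was at least 8.97-fold higher with DHT in LNCaP on the same floor (lower 95% limit 6.82 with error in both) and 344 times as high in BicR (94.9 to 2851). TTN was 243 times as high in BicR (94.4 to 892) but only 2.08 times as high in LNCaP (1.01 to 4.53). The choice of comparator thus moved the LNCaP value of TTN from 23.9 to 2.08, and left its interval barely above 1. The LNCaP ethanol library stood apart from the other 5 in one respect: HSPA5, an endoplasmic reticulum chaperone, took 0.79% of its counts against 0.131% to 0.164% elsewhere, and the part of that in the TTN value was not tested.

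On the scale of log2(CPM + 1), which damps genes near 0, DHT minus ethanol was 0.60 in LNCaP (0.40 to 0.80) and 3.88 in BicR (3.72 to 3.99) for CCDC141. For TTN it was 0.54 in LNCaP (0.32 to 0.74) and 4.17 in BicR (3.97 to 4.32). A 2-fold difference on this scale was therefore reached in BicR by both and in LNCaP by neither. Among all genes tested, 1.45% were at least 2-fold higher in BicR, 1.4% in LNCaP and 0.288% in both lines.

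SESTD1 went the other way by a small amount. The DHT to ethanol ratio was 0.802 for LNCaP (0.726 to 0.885) and 0.926 for BicR (0.841 to 1.02). Against bicalutamide the ratios were 0.636 in LNCaP (0.579 to 0.698) and 0.888 in BicR (0.806 to 0.978). In BicR the ethanol interval includes 1, so a difference there was not detectable at this depth.

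In a model of cell line plus treatment over the 6 libraries, the DHT estimates as log2 fold changes were 9.22 for CCDC141, 6.30 for TTN and -0.21 for SESTD1. They are descriptions with no test, as these values chose the genes. The fitted size for genes with counts at or near 0 depends on the prior count of the fit, and the ratios above are the firmer statement.

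Bicalutamide against ethanol was not used to choose the genes. SESTD1 did not pass, with an additive estimate of 0.20 (SE 0.21) and an edgeR quasi-likelihood, Benjamini-Hochberg adjusted p of 0.996. The estimates for CCDC141, 0.92 (SE 1.24), and TTN, 1.60 (SE 1.71), are given with no test, because in these 4 libraries both genes lay far under the count filter. Across all genes edgeR called 0% in either direction and DESeq2 also called 0. Before adjustment, p was under 0.05 for 52 higher and 89 lower genes, 0.375% and 0.641% of those tested, and SESTD1 was not among them. The wide errors of CCDC141 and TTN leave a several-fold difference undetectable.

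Within LNCaP, TTN had 12 counts with bicalutamide against 1 with ethanol, a ratio of 11.5 (1.70 to 492). Within BicR it had 4 against 8, a ratio of 0.530 (0.117 to 1.98). For CCDC141 no ratio is given, as both libraries of each line were at or under 3 counts. SESTD1 had a bicalutamide to ethanol ratio of 1.26 for LNCaP (1.15 to 1.38) and 1.04 for BicR (0.954 to 1.14).

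Between the lines, the gap was largest under DHT. There CCDC141 was 27.2 times as high in BicR as in LNCaP (18.6 to 41.3) and TTN 41.2 times (27.9 to 63.5), against 1.29 times for SESTD1 (1.16 to 1.42). Of all genes tested, 2.81% were at least 2-fold higher in BicR than in LNCaP under DHT. With ethanol, TTN was 7.68 times as high in BicR, on 8 counts against 1 (1.03 to 341), and SESTD1 1.11 times (1.02 to 1.22). With bicalutamide, TTN was 0.354 times as high, on 4 counts against 12 (0.0832 to 1.17), and SESTD1 0.921 times (0.845 to 1.00). CCDC141 was at or under 2 counts in both lines without androgen.

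Averaged over treatments, SESTD1 did not pass the test between the lines: its log2 difference, BicR minus LNCaP, was 0.13 (SE 0.17), with an edgeR quasi-likelihood, Benjamini-Hochberg adjusted p of 0.662, and the BicR library was the higher in 2 of 3 treatments. TTN was higher in BicR in 2 of 3 treatments. CCDC141 was higher in BicR under DHT. Without androgen its counts, 1 against 0 with ethanol and 2 against 0 with bicalutamide, were under the floor and could not be ordered. The estimates were 4.73 for CCDC141 and 3.31 for TTN. Both are descriptions with no test: nearly all counts of these genes lie in the DHT libraries that chose them, so the estimates rest mostly on BicR with DHT against LNCaP with DHT. In the same test 1.58% of genes were higher and 2.84% lower in BicR, 219 and 395 genes, a split that became 523 and 517 with unscaled library totals. Without LNCaP with DHT the estimate of TTN was 0.025 and that of CCDC141 3.68. Without BicR with DHT, both genes fell under the count filter and had no estimate.

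In order of level, CCDC141 ran from BicR with DHT to LNCaP with DHT and then to BicR with bicalutamide, the last step being 12.7-fold (3.20 to 110). The 4 androgen-free libraries of CCDC141 could not be ordered. TTN ran from BicR with DHT to LNCaP with DHT to LNCaP with bicalutamide, and the steps from there down to BicR with ethanol (1.5, 0.563 to 4.22), BicR with bicalutamide (1.89, 0.506 to 8.56) and LNCaP with ethanol (4.07, 0.403 to 200) were all within counting error. For SESTD1 each step was within counting error except the last, from LNCaP with ethanol to LNCaP with DHT, at 1.25-fold (1.13 to 1.38).

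Counts of TTN and CCDC141 were alike under DHT although the genes differ greatly in length. TTN had 0.929 times the counts of CCDC141 in LNCaP with DHT (0.523 to 1.64) and 1.41 times in BicR with DHT (1.27 to 1.57). The gene model behind the authors' RPKM (reads scaled by gene length and library total) was 29.6 times as long for TTN as for CCDC141. Per length on that model, CCDC141 was the more abundant, with an RPKM of 2.41 against 0.115 for TTN in BicR with DHT, a ratio of 21.0. In LNCaP with DHT the RPKM was 0.0891 for CCDC141 and 0.00280 for TTN, a ratio of 31.8. SESTD1 stood at 1.11 RPKM in BicR with DHT and 0.868 RPKM in LNCaP with DHT. In BicR with DHT the RPKM of CCDC141 was 2.17 times that of SESTD1, and the RPKM of SESTD1 was 9.68 times that of TTN.

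Gene models bear on these values. In GENCODE 29 the longest coding transcript was 109224 nt for TTN, 9131 nt for CCDC141 and 10615 nt for SESTD1, so TTN was 12.0 times as long as CCDC141 there, against 29.6 in the authors' model. CCDC141 was 0.86 times as long as SESTD1 there, against 0.362 in the authors' model. With these GENCODE lengths, an alternative chosen after seeing the data, the per-length level of CCDC141 in BicR with DHT was 0.914 times that of SESTD1, so the order of that pair reversed. CCDC141 stayed above TTN, by 8.49 times in BicR with DHT and 12.9 times in LNCaP with DHT. CCDC141 had 4 coding transcripts, the shortest of 2029 nt, and TTN had 16. TTN and CCDC141 overlapped in GENCODE 29 and did not overlap in RefSeq, and the antisense gene TTN-AS1 overlapped TTN in both. Whether counting used strand is not given in the sources used here, so reads from TTN and TTN-AS1 cannot be told apart. Strand could not separate reads from a stretch that TTN and CCDC141 share, as both genes lie on the minus strand. The table gives 1 count per gene and does not show where along TTN the reads lay.

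The next gene after SESTD1 among the neighbours taken here was also higher in the DHT libraries. ZNF385B, a zinc finger gene, had 392, 624 and 1004 counts in LNCaP with ethanol, bicalutamide and DHT, and 578, 403 and 1513 in BicR in the same order. Both DHT libraries were above all 4 androgen-free ones, as they were for 5.82% of all genes tested. The DHT to ethanol ratio was 2.36 for LNCaP (2.10 to 2.66) and 3.25 for BicR (2.95 to 3.58). Against bicalutamide the ratios were 1.55 (1.40 to 1.71) and 4.40 (3.94 to 4.92). Its additive estimate was 1.5 (SE 0.33) and did not pass in edgeR (adjusted p 0.282), and DESeq2 called it (adjusted p 0.00254). In edgeR it also passed with no count filter (adjusted p 0.0256), without LNCaP with ethanol (0.0258), without LNCaP with DHT (0.0154) and without BicR with ethanol (0.00432), and over all 6 omissions its adjusted p ran from 0.00432 to 0.618.

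The other neighbours showed no call. Neighbours were the nearest 5 on each side, in RefSeq order, among protein-coding genes on a prepared list of the region and in the table. Any gene not on that list was skipped. Of these 10 neighbours, 8 passed the count filter, and edgeR called 0 higher and 0 lower with DHT. DESeq2 called 1, and before adjustment p was under 0.05 for 1 in edgeR, in each case ZNF385B. Among all genes tested with DHT, edgeR called 0.158% higher and 0.0072% lower, DESeq2 called 0.54% higher and 0.173% lower, and before adjustment 2.74% were higher and 2.89% lower in edgeR. The remaining 7 tested neighbours had additive estimates between -0.16 and 0.35. PLEKHA3, which encodes a phosphoinositide-binding protein of the Golgi and lies on the TTN side, had DHT to ethanol ratios of 0.794 for LNCaP (0.723 to 0.873) and 1.00 for BicR (0.915 to 1.09). UBE2E3, a ubiquitin-conjugating enzyme, had 1.29 (1.19 to 1.40) and 1.26 (1.15 to 1.37), but 0.819 against bicalutamide in LNCaP (0.762 to 0.880). The integrin gene ITGA4 had at most 1 count in any library and CERKL at most 2. SESTD1 thus lay between genes with higher DHT values on both sides without sharing them.

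**Figure D2:**
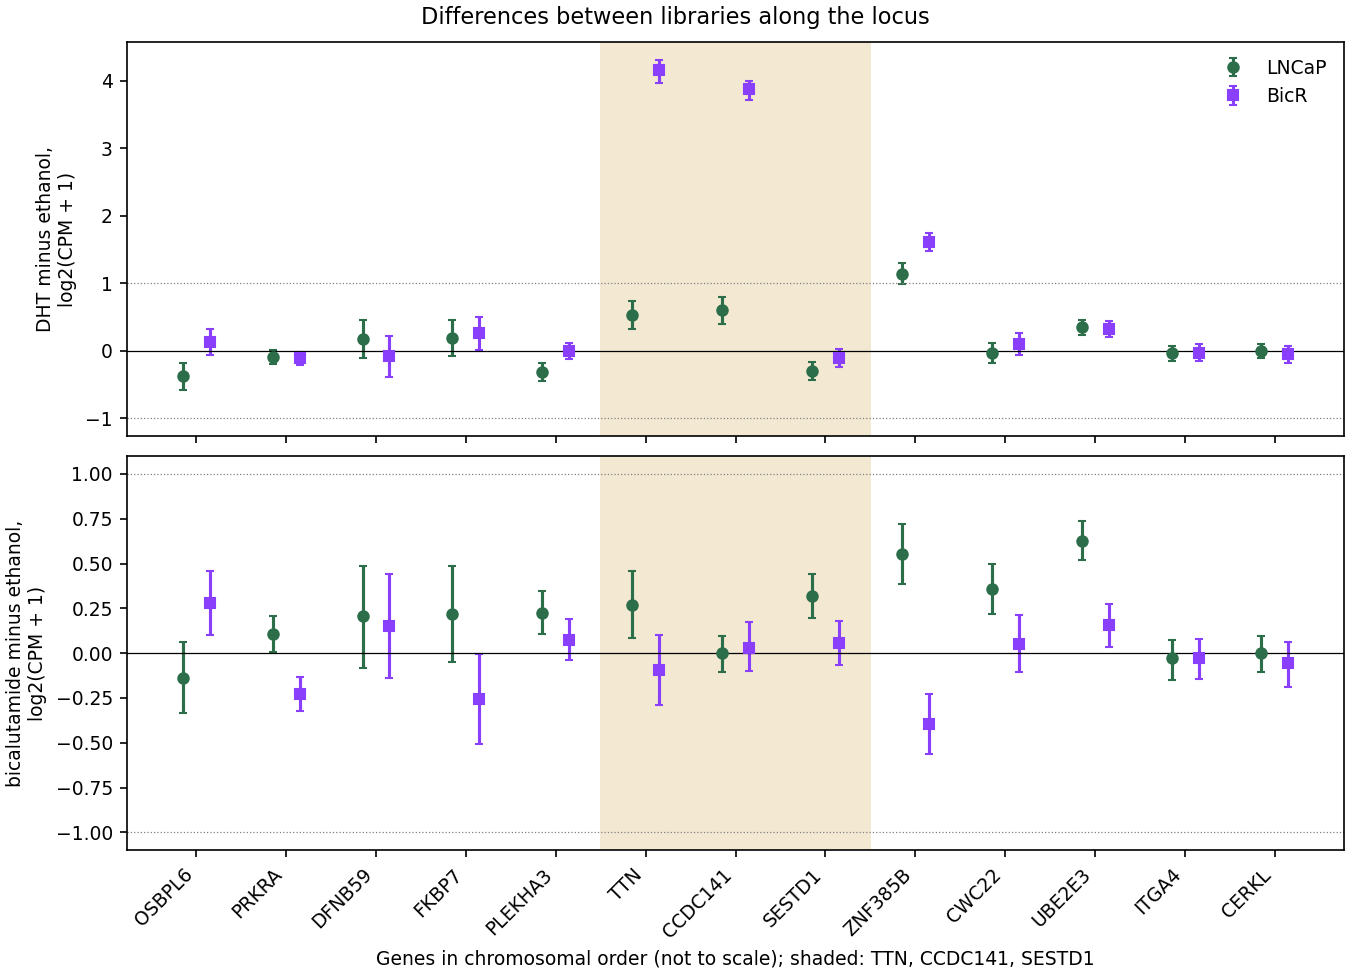
Difference in log2(CPM + 1) from ethanol for DHT (top) and bicalutamide (bottom) in LNCaP (circles) and BicR (squares), for 13 genes in chromosomal order, with 95% counting intervals; dotted lines mark 2-fold and the vertical scales differ. TTN and CCDC141 stand at 4.17 and 3.88 with DHT in BicR, ZNF385B at 1.62, and SESTD1 between them at -0.11.

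Over the 6 libraries, the profiles of CCDC141 and TTN on log2(CPM + 1) correlated at r = 0.997, rank 4 of 13884 genes for each. These correlations are descriptions over 6 points that share libraries and rest mostly on BicR with DHT, so no p is given. CCDC141 and TTN were also both chosen for higher levels with DHT, which favours a high value. The genes most like CCDC141 were SLC38A4, an amino acid transporter (r = 0.9996), SLC2A3, the glucose transporter GLUT3 (0.9987), RHOU, a small GTPase (0.9981), TTN (0.9969) and CUX2, a homeobox factor (0.9956). Those most like TTN were RHOU (0.9997), SLC38A4 (0.9982), the vesicle GTPase RAB3B (0.9974), CCDC141 (0.9969) and C1orf21 (0.9955). SLC2A3 had 3, 28, 1, 1, 309 and 0 counts in LNCaP with ethanol, DHT and bicalutamide and BicR with the same, and it shares much sequence with its paralog SLC2A14, so its counts are uncertain. RHOU was present in every library and went from 2026 counts with ethanol to 8497 with DHT in BicR, so likeness of profile here spans genes that are off without androgen and genes that are not. Altogether 15 genes correlated above 0.99 with CCDC141 and 13 with TTN.

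SESTD1 was unlike both, at r = -0.19 with CCDC141 and -0.12 with TTN. Its nearest genes were BMS1, a ribosome biogenesis GTPase (0.9976), ZNF609 (0.9970), VPS13B, a lipid transfer protein (0.9959), STRN, which encodes striatin (0.9949), and USPL1 (0.9937). These were lowest in LNCaP with DHT and highest in LNCaP with bicalutamide, as SESTD1 was.

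**Figure D3:**
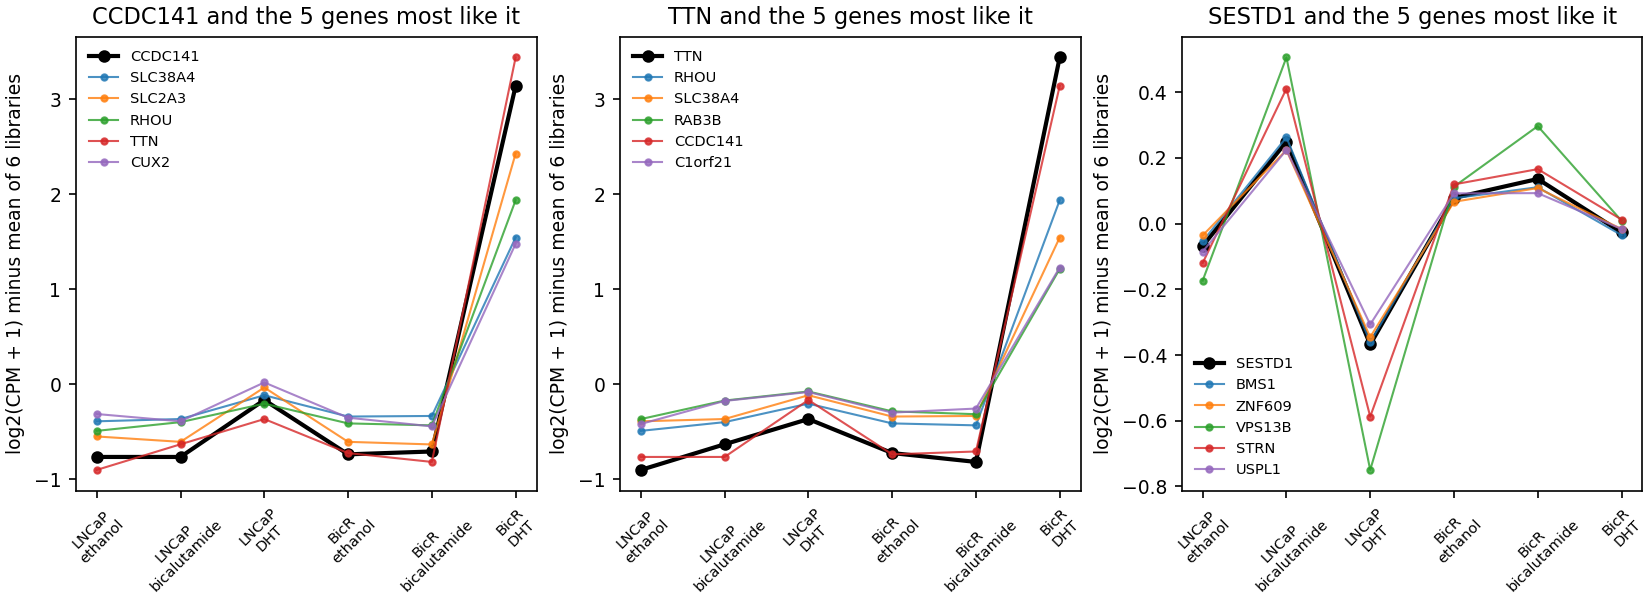
Log2(CPM + 1) minus the mean of the 6 libraries, per library, for each gene (black) and the 5 genes with the highest correlation (colours); the vertical scales differ. The CCDC141 and TTN sets share 1 peak in BicR with DHT, and the SESTD1 set moves within a much narrower range, lowest in LNCaP with DHT.

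A list of genes whose proteins work with titin was set beside TTN. Of 52 genes of titin partners and sarcomere proteins, all 52 in the table, 27 were tested, and edgeR called 0 higher and 0 lower with DHT, and DESeq2 called 1 higher. Before adjustment, p was under 0.05 for 2 higher and 2 lower, or 7.41% each of the 27, where the shares of all genes were 2.74% and 2.89%. With so few of all genes called, a count of 0 in a list is near the background. Their median additive estimate was -0.19, beside 0.00922 over all genes tested. Both DHT libraries lay above all 4 androgen-free ones for 1 of the 27 and below them for 3. The shares of all genes tested were 5.82% above and 6.03% below. The exception in size was MYBPC1, slow-type myosin-binding protein C of the sarcomere. Its counts were 45, 71 and 185 in LNCaP with ethanol, bicalutamide and DHT and 51, 43 and 444 in BicR. It was the 1 tested gene of the list with both DHT libraries above the other 4. It was 3.79 times as high with DHT in LNCaP and 10.8 times in BicR, with an estimate of 2.79 (SE 0.53) that did not pass in edgeR (adjusted p 0.154) and passed in DESeq2 (adjusted p 2.03e-05) and, in edgeR, with no count filter (adjusted p 0.00533) and with unscaled library totals (adjusted p 0.0144). Over omissions of 1 library its edgeR adjusted p ran from 9.6e-06 without LNCaP with ethanol to 0.604 without LNCaP with bicalutamide. FHL2, a LIM protein that binds titin, had an estimate of -1.24 (edgeR adjusted p 0.731), and the titin-bound protease gene CAPN3 one of 0.81 (edgeR adjusted p 0.885). Between the lines, edgeR called 1 of the 27 higher in BicR and 1 lower, where 1.58% and 2.84% of all genes were called. The higher gene was MYH6, a cardiac myosin heavy chain (1.57, edgeR adjusted p 0.0492). The lower gene was OBSL1, an obscurin-like protein (-1.44, edgeR adjusted p 0.0490). Both values lie just under the threshold of 0.05.

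**Figure D4:**
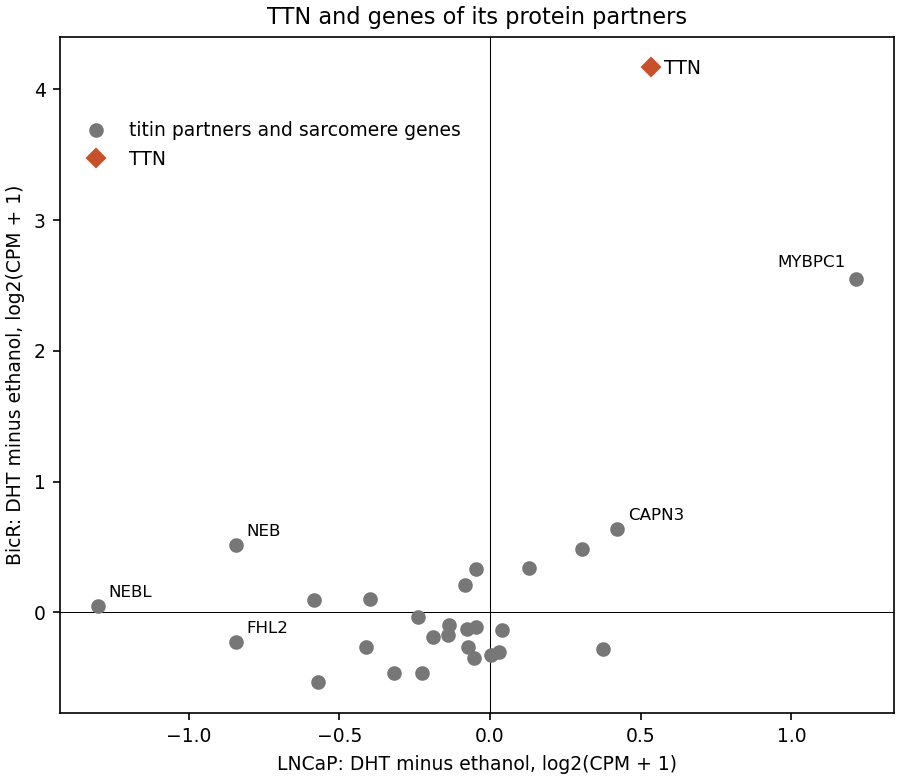
DHT minus ethanol in log2(CPM + 1), LNCaP on the horizontal and BicR on the vertical axis, for the 27 tested genes of titin partners and sarcomere proteins (grey) and for TTN (red). TTN is at 0.54 and 4.17 and MYBPC1 at 1.21 and 2.55, and every other gene of the set lies under 0.7 in BicR.

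The lists built around the other proteins had 0 edgeR calls with DHT, against 0.158% and 0.0072% of all genes, and their counts before adjustment stand beside 2.74% higher and 2.89% lower over all genes. Of 17 partners of CCDC141 in centrosome positioning, 15 were tested, with 0 higher and 0 lower in edgeR (0 and 1 before adjustment, 0 in DESeq2) and a median of -0.07. MYH10, a nonmuscle myosin II heavy chain, had the estimate of greatest size at -0.54 (edgeR adjusted p 0.802), being 0.719 times the ethanol level in LNCaP and 0.656 times in BicR. The dynactin gene DCTN1 was at -0.42 and the myosin gene MYH14 at -0.37. MYH14 was the 1 gene of the 15 called between the lines, lower in BicR than in LNCaP (-0.70, edgeR adjusted p 0.0430). Over all genes 2.84% were called lower in BicR and 1.58% higher. Of 15 partners of SESTD1, 9 were tested, with 0 higher and 0 lower in edgeR, 0 before adjustment, 0 in DESeq2, and a median of -0.19. The largest estimates there were -0.49 for the channel gene TRPC1, -0.38 for the polarity gene VANGL2 and 0.22 for DVL1, a Dishevelled gene.

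Among 27 genes with spectrin repeats, the domain family of SESTD1, 21 were tested and edgeR called 0 with DHT (0 higher and 2 lower before adjustment, 0 in DESeq2), with a median of -0.24. SYNE1, a nuclear envelope spectrin-repeat protein, had -1.35, the erythroid spectrin gene SPTB -0.68 and SPTAN1 -0.48. Between the lines SYNE1 was higher in BicR (2.37, edgeR adjusted p 0.0230), as was KALRN (1.22, edgeR adjusted p 0.0196). These were the 2 of 21 called higher, with 0 lower, where 1.58% and 2.84% of all genes were called. Of 13 further genes for immunoglobulin-domain giants and muscle kinases, 12 were in the table and 5 were tested, with 0 called by edgeR, 0 higher and 2 lower before adjustment, and 1 lower in DESeq2, where 0.173% of all genes were lower. That gene was MYLK, myosin light chain kinase, with -1.07 (edgeR adjusted p 0.24, DESeq2 adjusted p 0.0100), OBSL1 had -0.63 and ALPK3 0.59. A wider set from the same chromosome region had 26 gene symbols, including alternative names of the same gene, with 23 in the table and 17 tested. There edgeR called 0 with DHT (1 before adjustment and 1 in DESeq2, both ZNF385B), with a median of 0.03. In every one of these lists edgeR and DESeq2 called 0 with bicalutamide, with 0 at an unadjusted p below 0.05.

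The libraries held abundant luminal keratin RNA, and the muscle-defining transcription factors were at or near 0, while some other muscle markers were present. The luminal keratin gene KRT8 had between 31421 and 60899 counts and KRT18 between 16694 and 39819, while KRT19 had between 18 and 56. Of 23 muscle markers, 6 passed the count filter and 4, MYOG, MYF5, MYF6 and CHRNA1, were at 0 in every library. MYOD1 had at most 2 counts, and CKM and DES at most 1. The summed level of the list was 158 to 205 CPM in the androgen-free libraries and 177 to 223 CPM with DHT, most of it myoglobin (MB, 6339 to 10928 counts) and ACTA1 (923 to 1419 counts), and 0 of the 6 tested were called with DHT (0 before adjustment, 0 in DESeq2). Of 11 neuronal and neuroendocrine markers, 3 were tested and 0 called with DHT, and STMN2 was at 0 throughout. Of the other marker lists, edgeR and DESeq2 called 0 of 1 basal, 0 of 7 smooth muscle and stromal and 0 of 2 immune and endothelial genes, with 1 lower, 1 lower and 1 higher before adjustment in edgeR.

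Library totals ran from 42162723 to 55917016 counts, with the lowest in BicR with DHT, where CCDC141 and TTN were highest. Among androgen targets used to check the treatment, edgeR called KLK3, KLK2, TMPRSS2 and STEAP4 higher with DHT, and FKBP5 did not pass (adjusted p 0.15). STEAP4 had counts of 11, 5 and 358 in LNCaP with ethanol, bicalutamide and DHT and 8, 5 and 5668 in BicR. Like CCDC141 and TTN, it was near 0 without androgen and highest in BicR with DHT.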

How the data were processed

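For the aligner, counter, annotation and strand setting, the choice made is not given in the sources used here. RNA was sequenced on a SOLiD 3 Plus System per the labels' protocols, and the submitters' processing notes name hg19. Per the file headers, the authors deposited raw counts and RPKM (reads scaled by gene length and library total) for each gene and library. CPM and log2(CPM + 1) were computed here from the counts with TMM. The 3 genes and all gene lists were chosen with earlier results of these data known.

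The main test was edgeR's quasi-likelihood test (edgeR 4.0.16, limma 3.58.1, R 4.3.3) on cell line plus treatment, 6 libraries, 2 residual and 6.8 prior degrees of freedom, with Benjamini-Hochberg adjustment at 0.05 over the 13885 genes whose mean count was 20 or more. Each SE is the absolute log2 fold change divided by the square root of the F statistic of the edgeR test, so it restates that statistic. DESeq2 1.42.0 was an alternative. Nothing in the labels says whether libraries came from separate cultures, so p-values measure the spread of these 6 libraries around an additive model, in which any difference in response between the lines counts as error. Ratios have exact 95% intervals from the binomial split of 2 counts, and CPM has exact Poisson intervals. Reads carry no molecular identifiers, so intervals and the floor of 3 counts cover counting error only. The script was tested on simulated counts. Neighbours, the 5 genes most correlated with each of the 3, and in each list the genes called with DHT or otherwise the 3 with the largest estimates were named. KALRN, MYH6 and the marker genes were named after their values were seen. RefSeq and GENCODE 29 are on GRCh38, so only names, order, strand, overlap and transcript numbers and lengths were taken from them, besides the promoter windows. SESTD1 had no window in the table used. Some members of the lists are not reported here.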

Additional observations from a re-analysis of the deposited data

Results flagged for a closer look

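ZNF385B and PRKRA, the gene of an activator of the kinase PKR, moved in opposite directions with bicalutamide in the 2 lines. For ZNF385B, bicalutamide minus ethanol in log2(CPM + 1) was 0.552 in LNCaP and -0.395 in BicR. For PRKRA the values were 0.106 and -0.228. Each of the 4 counting intervals excluded 0, with 1 library per group, and the difference between the lines was not tested.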

How the results depend on the processing

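With 6 libraries and 2 residual degrees of freedom, counts of calls moved with most choices, and the cause was not tested. Genes higher with DHT numbered 22, against 57 with unscaled totals, 75 in DESeq2, 66 with no count filter and 0 to 167 when each library was left out in turn. Genes lower numbered 1, against 7, 24, 11 and 0 to 108. With bicalutamide, 0 became 0 to 102 higher and 0 to 94 lower on leaving out a library, the calls all coming from the fit without BicR with ethanol. Between the lines, 219 genes higher became 523 unscaled, 557 in DESeq2, 503 with no filter and 0 to 230 with a library left out, and 395 lower became 933 in DESeq2, 857 with no filter and 0 to 475. No paired analysis was possible because the labels number no replicates; cell line served as the block. Without a replicate block, 0 genes were called higher and 0 lower with DHT, and between the lines (treatment left out) 137 were higher and CCDC141 was at 4.71.

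For single genes, the bicalutamide estimate turned to -0.62 for CCDC141 without BicR with ethanol and to -1.12 for TTN without LNCaP with bicalutamide, and ran up to 1.51 and 5.49 over the other omissions. The line difference of CCDC141 ran from 3.68 to 4.75 over omissions. That of TTN ran from 0.025 without LNCaP with DHT to 5.15, with 3.32 where no filter was used.

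The log2 differences of CCDC141 and TTN depend on the pseudocount. With 0.1 in place of 1, DHT minus ethanol was 2.62 (LNCaP) and 6.89 (BicR) for CCDC141 and 2.27 and 6.29 for TTN; with 5 it was 0.14, 1.92, 0.13 and 2.26. As log2 of the authors' RPKM plus 1 it was 0.12, 1.77, 0.0039 and 0.16, and -0.15 for SESTD1 in LNCaP. Against bicalutamide it was 0.27 for TTN and -0.62 for SESTD1 in LNCaP. Bicalutamide minus ethanol at 0.1 was 0.24 for CCDC141 in BicR and 1.46 (LNCaP) and -0.48 (BicR) for TTN; in LNCaP TTN gave 0.059 at 5 and 0.0019 in RPKM. BicR minus LNCaP at 0.1 was 0.25 (ethanol), 4.52 (DHT) and 0.49 (bicalutamide) for CCDC141 and 1.08, 5.10 and -0.86 for TTN. At 5 under DHT it was 1.79 and 2.18, and in RPKM 1.65 and 0.15, with 0.0012 for TTN in ethanol and 0.18 for SESTD1 under DHT. Over the results that answer a comparison, 145 alternatives kept direction and side of the threshold or size, 62 moved and 2 reversed. A further 4 lost and 5 gained a pass of the threshold. The 4 were all line differences of CCDC141, and the 5 include line differences of TTN. Both are descriptions with no test here, so these passes carry no weight. Depth limits CCDC141 and TTN without androgen, where 0 to 12 counts leave wide intervals.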
